A study of Mus musculus with 6 samples.

Results

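Vegfa, Angpt1 and Pdgfa are the genes of the mouse wound healing PCR array that encode growth factors for vessels and for the mesenchymal and mural cells around them. They were picked by gene symbol, not by a measured value, and account for 3 of the 89 gene assays, which cover 84 wound healing and 5 housekeeping genes. The cells were dermal fibroblasts explanted from newborn C57BL/6 mice, used between the 3rd and 5th passage and wounded with a pipette tip in a scratch assay. The control group (n = 3) received DMEM medium only, and the DS group (n = 3) received 2,4-DS, a dermatan sulfate from the ascidian Styela plicata, at a dose stated in the methods as 50 µg/mL. Mitomycin C, which blocks proliferation, was present in both groups. The duration is given differently in different places, as 48 h in the methods and as 24 h and 72 h in the labels, and the labels list DS from 10 to 1000 µg/mL with no dose tied to a sample. The design text calls the samples biological triplicates, without naming the animals behind each culture.

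Vegfa encodes vascular endothelial growth factor A, the main signal for endothelial cells to divide, migrate and sprout, acting through the VEGF receptors. Angpt1 encodes angiopoietin 1, secreted by mural and stromal cells, which activates the receptor Tek on endothelium and keeps new vessels stable. Pdgfa encodes the A chain of platelet-derived growth factor, which drives fibroblasts and other mesenchymal cells through the receptor Pdgfra. In healing skin, fibroblasts are one of several sources of these factors, and the receptors named here were not measured.

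The measured value was the CT, the PCR cycle in which a well's fluorescence first passes a fixed threshold. A lower CT means more template, and 1 cycle is a 2-fold difference if every cycle doubles the product. A well with no CT, or with a CT over the study's cutoff of 36, was taken as not detected. A PCR array has no sequencing depth, so the precision rests on 3 arrays per group. In bulk cultures, fewer cells that express a gene and less of its RNA per cell cannot be told apart.

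Several assays that do not report on single wound healing genes also differed between the arrays. From 25 to 26 gene assays were detected in each control array and from 58 to 60 in each DS array. The housekeeping gene Actb was silent in control and came at 12.2 ± 0.768 cycles (SD, n = 3) in DS, and all wells of the positive PCR control were silent in the 6 arrays. In the paper's separate RNA quality control run, by contrast, Actb was detected and is reported to have varied without significance. Of the 7 fibroblast markers examined, 1 (Col5a2) was detected in all 3 control arrays and 5 (Col1a1, Col1a2, Col3a1, Col5a2 and Mmp2) in all 3 DS arrays. The type I and type III collagen genes that define fibroblasts thus gave no CT in control. For markers of other cells, numbers are those detected in all control and in all DS arrays. They were 0 and 1 of 2 for mural cells or myofibroblasts (Tagln in DS) and 0 and 1 of 2 for epithelium (Itgb6 in DS). For lymphocytes they were 2 and 2 of 4 (Il4 and Ifng in control, Cd40lg and Ifng in DS). For neutrophils they were 0 and 1 of 1 (Ctsg in DS), and for liver 1 and 2 of 3 (Vtn in control, Fga and Plg in DS). The part of these differences in the results below was not tested.

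Vegfa was detected in every array and was much lower with DS. Its CT was 19.72, 18.00 and 21.53 in control replicates 1, 2 and 3, and 32.56, 31.31 and 30.78 in DS replicates 1, 2 and 3. The groups did not overlap, and the latest control array still came more than 9 cycles before the earliest DS array. The control mean was 19.8 ± 1.77 cycles (SD, n = 3) and the DS mean 31.6 ± 0.914 cycles (SD, n = 3).

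**Figure D1:**
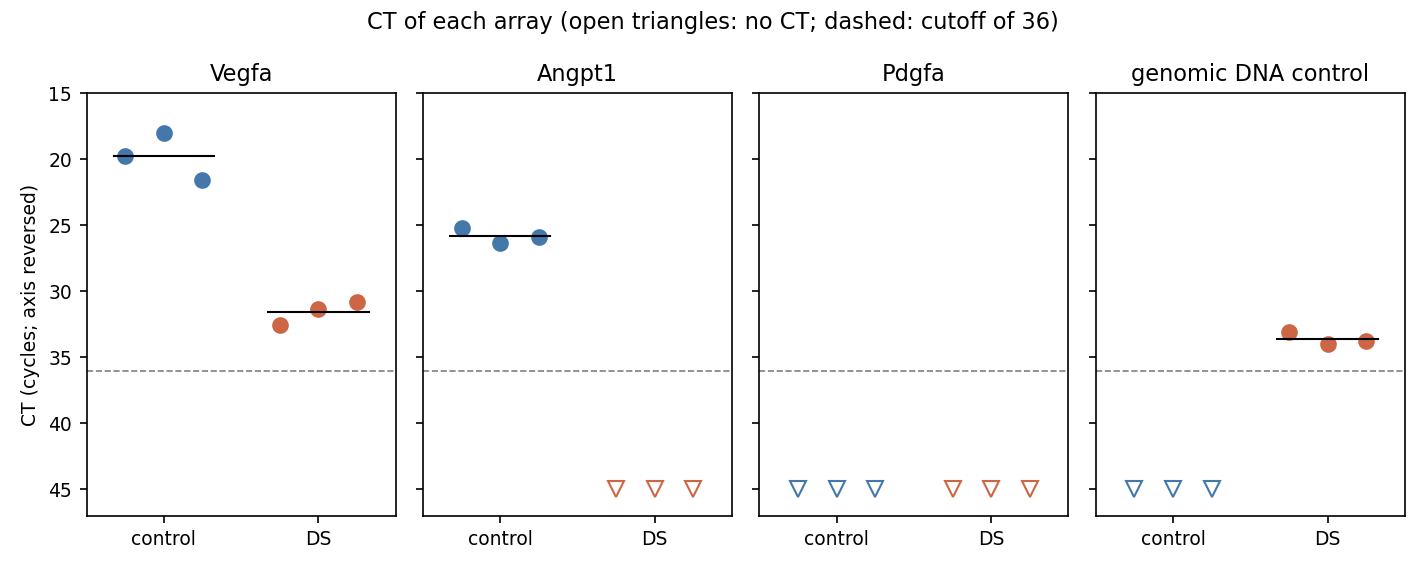
CT of Vegfa, Angpt1, Pdgfa and the genomic DNA control in each of the 3 control (blue) and 3 DS (orange) arrays, on a reversed axis so that more template is higher. Lines are group means, the dashed line is the cutoff of 36, and open triangles mark arrays with no CT: all DS arrays for Angpt1, all arrays for Pdgfa and all control arrays for the genomic DNA control.

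To express this as a fold change, each CT was taken relative to its array's mean over the normalizing genes (Hsp90ab1, Egfr and Ccl7) with the sign reversed, giving −ΔCT on the log2 scale. The reference mean lay between 30.2 and 30.4 in the 6 arrays. For Vegfa, −ΔCT was 10.65, 12.35 and 8.65 in the control replicates and −2.28, −1.02 and −0.48 in the DS replicates. The log2 fold change of DS against control was −11.81 (95% interval from −13.86 to −9.76, adjusted p = 1.95e-06, limma with Benjamini-Hochberg adjustment over the 64 wound healing genes detected in at least 1 array). This is a level 3591-fold lower in DS, with an interval from 865 to 14901-fold, if amplification doubles in every cycle. Limma draws the variance of each gene towards that of all tested genes, many with a group at the cutoff. The interval may therefore be too narrow for Vegfa. The exact permutation test gave a two-sided p of 0.1, the smallest that 3 arrays against 3 allow. On the linear values 2^(−ΔCT), the methods' t-test gave Vegfa an unadjusted p of 0.171 and did not pass 0.05.

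The control arrays differed widely among themselves. In units of the normalizing genes, Vegfa stood at 1611, 5221 and 401 in the control replicates and at 0.205, 0.494 and 0.717 in the DS replicates. The control values covered more than an order of magnitude, all far above the DS values. The SD of the control CT was the widest of the 17 gene assays detected in all 6 arrays, where the median SD was 0.405 cycles in control and 0.607 in DS. In DS, the spread of Vegfa ranked 5 of 17.

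Angpt1 was detected in control only. Its CT was 25.21, 26.34 and 25.89 in control replicates 1, 2 and 3, with a mean of 25.8 ± 0.569 (SD, n = 3), and no DS array gave any CT, even a late one. The groups therefore do not overlap, and the fold change is a bound set by the cutoff. With a CT of 36 in place of the missing values, the log2 fold change was at least as low as −10.20 (adjusted p = 1.32e-08, limma), or at least 1174-fold lower in DS. The limma p treats the cutoff as a measured value. The bound moved with the assumed CT, to −9.20 at a cutoff of 35, −14.20 at 40 and −19.20 when a missing CT was set to the last cycle of the run, 45. The methods' t-test gave Angpt1 an unadjusted p of 0.0174, and the exact permutation test gave the smallest possible p of 0.1.

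Pdgfa stayed without a CT in all 6 arrays. With both groups beyond the cutoff no fold change can be computed, and whether they differ is under the detection limit of the assay. The missing signal says only that this assay did not cross the threshold, in a run where the positive PCR control did not cross it either.

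Both members that could be tested were lower in DS. Among the 64 tested genes, 92.2% passed the adjusted threshold of 0.05 in either direction (limma), 20.3% as lower in DS and 71.9% as higher, and 93.8% had groups that did not overlap. A call or a clean separation was therefore the rule on these arrays. For many genes it follows largely from detection. Of the tested genes, 39 were detected in DS only and 7 in control only, with the other group set to the cutoff. Such bounds made up 36 of the 46 higher and 7 of the 13 lower calls. With the 3 normalizing genes, Vegfa and Angpt1 differed from most of the genes in direction. Larger changes occurred both ways, such as −16.92 for Ccl12 and 16.57 for Mif. Over all tested genes the median was 4.40 on the log2 scale. The difference from it was −16.21 for Vegfa and −14.59, as a bound, for Angpt1. Both differences depend on the cutoff, since most tested genes enter the median as bounds. For Vegfa the difference was −15.67 at a cutoff of 35, −17.88 at 40 and −24.06 with a missing CT set to 45. The median of the 18 genes measured in both groups was 2.23. In order from the lowest fold change upwards, Vegfa was number 4 and Angpt1 number 7 of 64, with bounds counted at their value. This order moved with the cutoff, to 2 for Vegfa at 35, to 6 for Vegfa and 5 for Angpt1 at 40, and to 8 and 4 with a missing CT set to 45. Of the genes called, 78.0% were higher, a split that turned to 30.4% with the 5 housekeeping genes as the reference and to 16.1% with Actb and Gapdh.

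Vegfa and Angpt1 did not vary together within the control group. Control replicate 2 had the earliest CT for Vegfa and the latest for Angpt1. The gap between them in the same array, Angpt1 minus Vegfa, ran from 4.36 to 8.34 cycles, with a mean of 6.06 ± 2.05 (SD, n = 3). A difference in CT between 2 assays also holds their efficiencies, so it is no ratio of transcript numbers.

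Each gene was read by 1 well per array, and the position of the amplified stretch is not given in the sources used here. Gene names follow the deposited well annotation, and whether each well held the assay listed for it was not tested, which matters for every value here given the control wells described below. Vegfa lies on the minus strand of chr17:46016993-46032377, Angpt1 at chr15:42424667-42676977 and Pdgfa at chr5:138976014-139000792 (GRCm38.p6, RefSeq). RefSeq lists 10 curated mRNA transcripts for Vegfa, 2 for Angpt1 and 2 for Pdgfa. The array thus gives a single value per gene and cannot separate the isoforms of Vegfa, some of which differ in how they bind heparan sulfate and the cell surface.

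The RefSeq table of gene starts holds 2 of the 3 members, Vegfa and Pdgfa, and not Angpt1. The 250 bases before the outermost listed start are shown for both, as the member measured in both groups and the member never detected. They are the Vegfa window chr17:46032378-46032627 and the Pdgfa window chr5:138994945-138995194 (GRCm38.p6, minus strand for both), printed 5′ to 3′ with GC boxes in capitals. The Pdgfa window lies inside the gene's span given above, which reaches further upstream than its listed starts.
Vegfa: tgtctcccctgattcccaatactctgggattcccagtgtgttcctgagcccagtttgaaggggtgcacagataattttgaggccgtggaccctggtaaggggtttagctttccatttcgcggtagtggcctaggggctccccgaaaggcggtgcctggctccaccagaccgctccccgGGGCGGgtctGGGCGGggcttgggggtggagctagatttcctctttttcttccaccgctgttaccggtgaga
Pdgfa: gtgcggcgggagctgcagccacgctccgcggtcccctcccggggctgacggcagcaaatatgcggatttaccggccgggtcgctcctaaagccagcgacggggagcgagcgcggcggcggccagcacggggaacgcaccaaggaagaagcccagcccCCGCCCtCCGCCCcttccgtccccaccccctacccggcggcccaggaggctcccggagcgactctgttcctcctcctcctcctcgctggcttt

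The GC box, GGGCGG, is bound by Sp family factors. In the Vegfa window it began 72 and 62 bases before the start on the gene's strand, and in the Pdgfa window its reverse complement CCGCCC began 93 and 86 bases before the start. Neither window held the core of the hypoxia response element, ACGTG, or the TATA box, TATAAA, on either strand. A second listed Vegfa start, inside the gene, had 1 GC box and 1 ACGTG on the reverse strand in its 250 bases (chr17:46025164-46025413). The other listed Pdgfa start had 1 GC box, 60 bases upstream (chr5:138994282-138994531). Over all 32851 listed starts, 32.7% of such windows held a GC box, 16.6% the ACGTG core and 12.4% a TATA box. GC content was 59.2% in the Vegfa window and 72.4% in the Pdgfa window, against a median of 52.4%. These matches describe letters in the windows and were not related to the CT values.

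Because a difference between 2 CT of the same array does not depend on the normalizing genes, Vegfa was also set against each of the 16 other gene assays detected in all 6 arrays. Relative to 14 of the 16, every DS array had less Vegfa than every control array. The change ran from 6.15 cycles against Egf to 28.38 against Mif among these, and the median over the 16 was 13.24 cycles. Each change also holds that of the other assay. The mean CT of Mif went from 26.4 in control to 9.79 in DS, and that of Egf from 25.5 to 31.1. Against the normalizing genes it was 12.50 cycles for Egfr, 11.48 for Ccl7 and 11.45 for Hsp90ab1.

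The exceptions were genes that decreased as steeply. Against Col4a3, a basement membrane collagen chain, the change was 1.20 cycles and the groups overlapped, from −3.92 to −1.10 in control and from −2.15 to 0.29 in DS. Against Ccl12, a monocyte chemokine, it was −5.11 cycles, since Ccl12 itself came at 18.2 ± 0.653 cycles (SD, n = 3) in control but only at 35.1 ± 0.121 cycles (SD, n = 3) in DS. Vegfa therefore stood higher relative to Ccl12 in every DS array than in any control array.

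**Figure D2:**
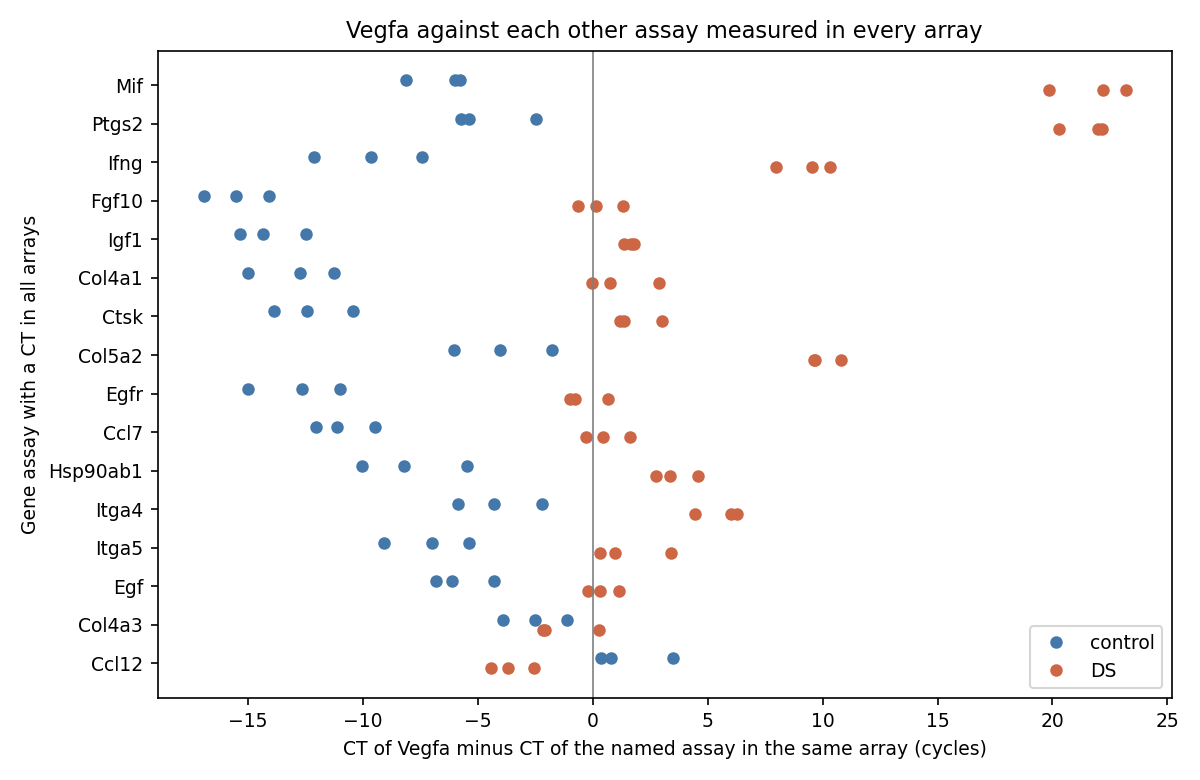
CT of Vegfa minus the CT of each other gene assay detected in all 6 arrays, in cycles within the same array, for 3 control (blue) and 3 DS (orange) arrays. DS points lie to the right of all control points for 14 of the 16 assays, overlap with them for Col4a3 and lie to the left for Ccl12.

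The choice of normalizing genes moved the fold changes of all genes of an array together. For Vegfa the log2 fold change was −11.45 with Hsp90ab1 alone, −11.99 with Ccl7 and Egfr and −11.80 without normalization. With the 5 housekeeping genes it was −19.43 and with Actb and Gapdh −23.70, where much of the reference is the cutoff itself: Actb, B2m, Gapdh and Gusb gave no CT in control, and Gapdh and Gusb none at or under 36 in DS. With the median CT of the assays detected in all 6 arrays it was −8.86. Angpt1 followed from −22.08 to −7.24 over the same normalizers. Neither gene changed direction, although the median of the tested genes turned from 4.40 to −3.23 and −7.49 with both housekeeping sets. Those sets could only lower the values, since Actb was at the cutoff in control and early in DS. Of the references tried, only the median CT moved both genes markedly towards no change.

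**Figure D3:**
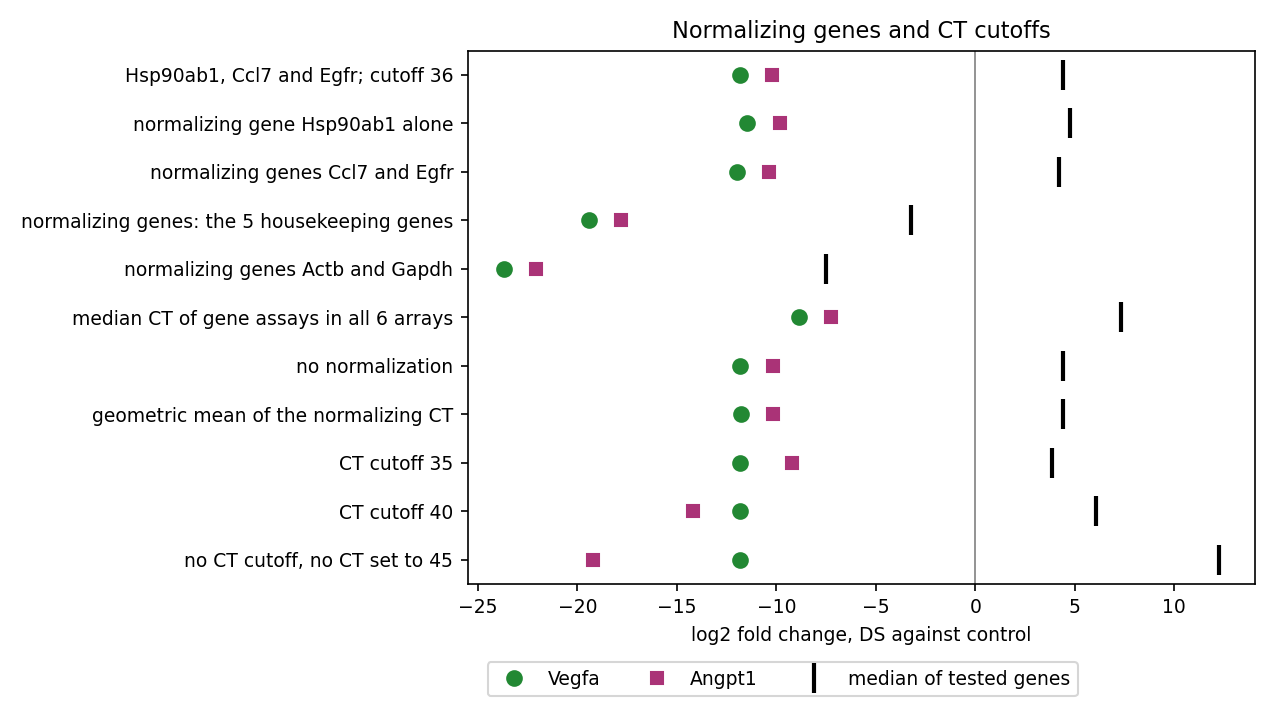
Log2 fold change of DS against control for Vegfa (circles), Angpt1 (squares) and the median of the tested genes (bars) under each normalization and CT cutoff. Vegfa and Angpt1 stay below 0 throughout, from −23.70 to −8.86 and from −22.08 to −7.24, while the median changes sign with the housekeeping sets.

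Control wells without a mouse transcript give a scale for these differences. The genomic DNA control, an assay for untranscribed mouse DNA, came at 33.08, 34.02 and 33.78 cycles in DS replicates 1, 2 and 3 and was silent in control, although the protocol included a DNase step. The paper's separate RNA quality control run is also reported to have shown no such contamination. In the same DS arrays Vegfa came from 0.52 to 3.00 cycles earlier, a mean of −2.08 ± 1.36 cycles (SD, n = 3). The DS value of Vegfa is thus close to the genomic DNA signal, closest in DS replicate 1, and the share of genomic template in it was not tested. In control, where the genomic DNA assay was silent, neither the Vegfa nor the Angpt1 signal was accompanied by it.

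The reverse transcription control is the same assay of an added artificial RNA in 3 wells of each array, and its wells differed. The first well was silent in control and had a mean of 29.6 ± 0.615 (SD, n = 3) in DS. The second gave 22.5 ± 0.699 (SD, n = 3) in control and nothing at or under 36 in DS. The third gave nothing at or under 36 in control and 32.1 ± 0.617 (SD, n = 3) in DS. Against the cutoff, the second well was at least 13.53 cycles later in DS, a larger difference than the 11.80 cycles of Vegfa and in the same direction. The part of whatever separates these wells in the results for Vegfa and Angpt1 was not tested.

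The genes most like each member were found by the root mean square difference of −ΔCT over the 6 arrays, after each gene's own mean was removed. For Vegfa they were Vtn (1.16), Cxcl3 (1.22) and Col4a3 (1.29), against a median of 8.35 over the tested genes. For Angpt1 they were Col4a3 (0.60), Vtn (0.98) and Mmp1a (1.26), against a median of 7.47. Vtn encodes the adhesion protein vitronectin, Cxcl3 a neutrophil chemokine and Mmp1a a collagenase. Vtn, Cxcl3 and Mmp1a were detected in all control arrays and in no DS array, as was Angpt1, so this likeness rests largely on the shared cutoff value in DS. Col4a3 was measured in both groups, with a log2 fold change of −10.61. Angpt1 and Vegfa were each number 5 in the other's order, at 1.53.

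Other genes of vessel growth on the array were taken from lists by function. Their directions hold for the 3 normalizing genes, and the medians of the ligand, restraining, integrin and basement membrane lists turned negative with either housekeeping set, as did that of the signal carriers with Actb and Gapdh. Of 11 further ligands that promote vessel growth, 9 were tested, and by limma 7 were higher in DS and 2 lower. The lower ones were Egf, epidermal growth factor, with −5.66 (standard error 0.59), and Hgf, hepatocyte growth factor, whose CT of 30.7 ± 0.312 (SD, n = 3) in control had no counterpart in DS (at least −5.28). Igf1 was higher by 3.86 on the log2 scale and the endothelial and fibroblast mitogen Fgf2 by 7.82, the latter with 2 of 3 control arrays at or under the cutoff. Hbegf, Ctgf, Tgfa and Cxcl1 were detected in DS only, with bounds from 5.42 for Hbegf to 16.84 for Cxcl1, and Mif rose by 16.57. Tgfb1 crossed the threshold once, at 39.81 in DS replicate 1, and Cxcl5 gave CT only over the cutoff, in control, so neither was tested.

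The list median was 6.48 (from 5.48 at a cutoff of 35 to 13.85 with a missing CT set to 45). Over all tested genes the median was 4.40, and ran from 3.86 to 12.25 over the same cutoffs. The share of higher calls among the list's tested genes can be read against the background of 71.9%. Vegfa stood below every gene of this list measured in both groups, an order that the choice of normalizing genes cannot change. Hgf and Angpt1 were not detected in DS, so their order among themselves and that of Hgf against Vegfa are not settled: with a missing CT set to 45, Hgf falls below Vegfa.

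Of 4 genes whose product or a fragment of it restrains vessel growth, 3 were higher by limma and 1 lower, beside 71.9% and 20.3% of all tested genes. Ifng, an interferon, was measured in both groups and rose by 7.19, while Cxcl11, a chemokine it induces, and Plg, the source of angiostatin, were detected at or under the cutoff in DS only, with bounds of 5.39 and 3.63. In DS, the mean CT of Plg was 32.4, nearer to the 33.6 of the genomic DNA control than the 31.6 of Vegfa. The share of genomic template in the Plg signal was not tested. The lower gene was Col4a3, from which the fragment tumstatin derives. The list median was 4.51, and ran from 3.51 to 9.29 over the same cutoffs.

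Among 7 integrin genes used by endothelial and mural cells, 5 were tested, with 3 higher, 1 lower and 1 not called by limma, beside 71.9% higher and 20.3% lower among all tested genes. Itga2 rose by 16.79 on the log2 scale, and Itga1, the other collagen-binding alpha chain, had a bound of 9.37. Itgav, which pairs with the beta chains of the vitronectin receptors, had a bound of 1.96, while the partner genes Itgb3 and Itgb5 were not detected at or under the cutoff in any array. Itga5, the alpha chain of the fibronectin receptor to which angiopoietin 1 can also bind, fell by 3.11, from 26.9 ± 0.181 cycles (SD, n = 3) in the control arrays to 30.0 ± 0.934 cycles (SD, n = 3) with DS. Itgb1 was at or under the cutoff in 2 DS arrays and was not called (0.56, adjusted p = 0.176, limma). The list median was 1.96, and ran from 0.96 to 10.96 over the cutoffs.

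For the vessel basement membrane and its breakdown, 6 of 8 genes were tested, 5 were higher by limma, none was lower and 1 was not called, beside the same background of 71.9% higher. Col4a1, a main chain of the vascular basement membrane, rose by 2.39. The gelatinases Mmp2 and Mmp9 and the urokinase receptor Plaur were detected in DS only, with bounds of 6.30, 7.41 and 8.90. Plat had a bound of 1.63, and Plau, which also encodes a plasminogen activator, was not called (0.29, adjusted p = 0.358, limma). Timp1, an inhibitor of matrix metalloproteinases, gave a single CT of 38.12 and was not tested. In DS, the mean CT of Plat, Plau, Itgav and Itgb1 was later than the 33.6 of the genomic DNA control. The list median was 4.34, and rose to 12.97 with a missing CT set to 45.

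All 7 genes of the signal carriers below growth factor receptors were called higher by limma, and each was detected in DS only. The list median was 10.37, and 19.37 with a missing CT set to 45. Ctnnb1, which encodes beta-catenin, had a bound of 4.71. Its mean CT in DS was 31.3, against 33.6 for the genomic DNA control, and the share of genomic template in it was not tested. Rac1 and Rhoa, small GTPases of cell movement, had bounds of 6.00 and 10.37, and the kinase Mapk3 and the transcription factor Stat3 bounds of 15.47 and 16.45. Against a background of 71.9% higher calls, this is a count and no test of the list.

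**Figure D4:**
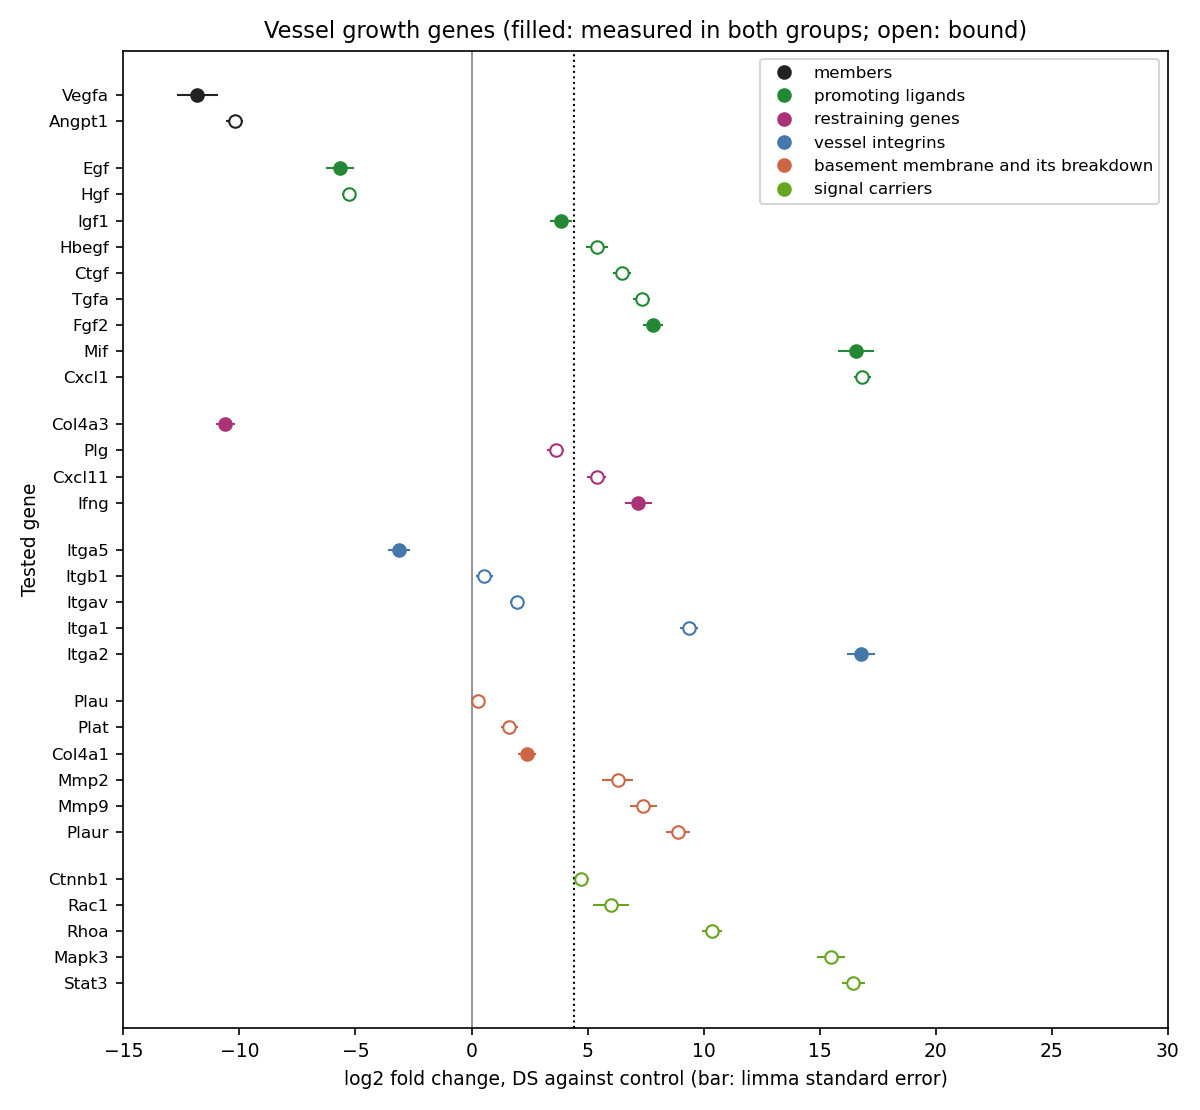
Log2 fold change of DS against control, with limma standard errors as bars, for the tested members and the genes of the 5 lists named in the text. Filled points were detected in both groups, open points are bounds set by the cutoff, and the dotted line is the median of 4.40 over all tested genes, which turns negative with the housekeeping genes as the reference. Vegfa and Angpt1 lie at −11.81 and −10.20, and the other gene of the lists near them is Col4a3 at −10.61.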

How the data were processed

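RNA of 3 control and 3 DS cultures was read on real-time PCR arrays of 96 wells, 1 array per sample. The authors deposited the CT of each well without normalization or cutoff, and a ratio, 2^(−ΔCT), for each group. Their deposited ratio matched the value computed here from the mean ΔCT of a group, with a geometric mean of the normalizing CT, for all 3 members. The members, lists and tests were chosen with earlier results of these data known. A CT over 36 or missing was replaced by 36, each array was normalized to the mean of Egfr, Hsp90ab1 and Ccl7, and the 64 wound healing genes detected in at least 1 array were fitted with limma 3.58.1 (R 4.3.3), two-sided, with Benjamini-Hochberg adjustment and a threshold of 0.05. Limma replaced the methods' t-test on 2^(−ΔCT), which is given beside it. Whether the limma p hold for genes with a whole group set to the cutoff was not tested. Named genes were the members, the tested genes of 5 lists (some list members are counted but not reported by name here), the 3 genes most like each detected member, and control assays, with Ccl12 named after its values were seen. Alternatives were other normalizing genes, cutoffs, filters and tests, a replicate block and each array left out. No 2 arrays shared a CT in any well. Promoter windows came from RefSeq (GRCm38.p6). The animal experiments and the no-template wells were not analysed here.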

Additional observations from a re-analysis of the deposited data

Results flagged for a closer look

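Control assays outside the gene comparisons gave a signal in DS and none at or under the cutoff of 36 in control. The genomic DNA control had a mean CT of 33.6 in DS. The reverse transcription control had a mean CT of 29.6 in DS in the well at position H07 and of 32.1 in the well at H09, while the well at H08 was detected in control only. Across the wells of this one assay with a CT, the earliest and latest lay 15.29 cycles apart in control replicate 1, 10.13 in DS replicate 1 and 12.05 in DS replicate 3.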

How the results depend on the processing

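Vegfa stayed lower in all 24 alternatives, from −23.70 to −8.86 on the log2 scale, and Angpt1 in all 23, from −22.08 to −7.24. Many of these could not move the Vegfa value: cutoffs, filters, limma variants, the block and the t-test leave it at −11.81 by construction. The authors' ratio repeats the geometric mean of the normalizing CT. Only other normalizing values and left-out arrays could change the Vegfa value, while cutoffs also moved the Angpt1 bound. The housekeeping sets could only lower both. Vegfa missed the threshold only with the methods' t-test, which leaves its log2 fold change of −11.81 as it is (p = 0.171 unadjusted, 0.188 adjusted, for 3 arrays per group, where an exact test cannot go below 0.1); its adjusted p by limma was at most 0.00023 in all other alternatives with a test. Leaving out 1 array gave −12.76 to −10.91 for Vegfa and −10.43 to −9.86 for Angpt1, and left 44 to 46 genes higher, 13 lower and 14 to 16 assays against which Vegfa was lower. Genes higher and lower numbered 46 and 13 with the main settings, 17 and 39 with the 5 housekeeping genes (30.4% of calls higher, against 78.0%), 10 and 52 with Actb and Gapdh (16.1%), and 8 and 6 among the genes detected in all 6 arrays, where fewer were tested. With the methods' t-test after adjustment 27 were higher and 9 lower. List medians turned negative with the 5 housekeeping genes for promoting ligands (−1.14), restraining genes (−3.12), integrins (−5.66) and basement membrane (−3.28). With Actb and Gapdh they were −5.41, −7.38, −9.93 and −7.54, and −1.52 for signal carriers. The replicate block left Vegfa at −11.81 and Angpt1 at −10.20, with 45 higher and 13 lower. Same-numbered arrays did not deviate together (correlations 0.0913, 0.0317 and −0.215 over 16 genes). Of 3 control arrays, 1 correlated best with its own number. So few arrays and genes cannot decide whether same-numbered cultures were paired, and the labels give only a number. With this block limma pooled the variance fully, and its p are too small to use.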
